A study of Mus musculus with 7 samples.

Results

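The C/EBP family comprised Cebpa, Cebpb, Cebpd, Cebpe and Cebpg, joined here by Ddit3, which encodes the related stress factor CHOP. These 6 genes were chosen by symbol, and each was found as 1 of the 23583 gene entries in both RNA tables. They were followed through RNA, binding peaks and DNA methylation in primary dermal fibroblasts of female FVB/N mice kept in DMEM/F12 medium with serum for 8 days. Treated cells received thapsigargin for 3 h, an inhibitor of the calcium ATPase that fills the endoplasmic reticulum, and untreated cells received none. RNA was read in 1 untreated and 1 treated library, CEBPB-bound chromatin in 1 untreated and 1 treated library, and ATF4-bound chromatin in 1 treated library. Bisulfite sequencing covered untreated cells only, in 2 libraries whose methylation percentages were held as pooled values. The number of mice behind each library is not given in the sources used here, and no p-value was computed because each RNA and binding condition had a single library.

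C/EBP proteins are basic leucine zipper (bZIP) transcription factors that bind DNA as dimers, with themselves, with each other or with factors such as ATF4. C/EBPB and C/EBPD are known for acute inflammatory responses, C/EBPA for adipocyte, liver and myeloid differentiation and C/EBPE for late granulocyte maturation. C/EBPG has little activating function of its own and serves as a dimer partner. CHOP, as a dimer with a C/EBP protein, does not bind classical C/EBP sites, and it is made when unfolded proteins in the endoplasmic reticulum bring about translation of ATF4. A composite element read TGATGCAA, joining the part recognised by ATF factors to that recognised by C/EBP factors, is bound by dimers of ATF4 with a C/EBP protein, and an element of this kind lies upstream of the human CHOP gene.

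The letters TGATGCAA are shown at 3 places under peaks of both ATF4 and CEBPB near the members, as examples and not as a full list of matches. Each is given as 30 bases of the mm9 reference, read on the strand of the match, with the match in capitals. The first lies in the 3′ untranslated region of Cebpb (chr2:167515609-167515616, plus strand), the second upstream of Ddit3 (chr10:126727548-126727555, minus strand) and the third at the start of Mars, the neighbour of Ddit3 (chr10:126748705-126748712, plus strand).
Cebpb: gtttcgggactTGATGCAAtccggatcaaa
Ddit3: gggggcggggaTGATGCAAtgtttggcaac
Mars: ggagcccacgcTGATGCAAtcggaaccggc
The letters were present in 0.743% of all ATF4 peaks, in 7.58% of CEBPB peaks of treated cells and in 7.76% of CEBPB peaks of untreated cells. They were present in 16 of the 100 ATF4 peaks of highest score whose sequence was read. A match is a description of the letters and not evidence of binding at that base.

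The RNA tables gave FPKM, fragments scaled to transcript length and to the fragments of the library, with a lower and an upper bound. The bounds implied 53915048 fragments untreated and 78944295 after thapsigargin. Of the entries, 12207 reached FPKM 1 in at least 1 library and are called expressed. A gene is called higher or lower where it was expressed and log2(FPKM + 1) differed by 1 or more, a scale that understates changes of low genes. The median change of expressed entries was −0.52 on this scale, and changes differed with exon structure: the 296 expressed entries without an exon junction had a median of 0.05, and 19.6% of them were higher. Cebpa, Cebpb and Cebpd have no junction, so a junction-adjusted change, which subtracts the median change found in genes with similar junction density, is given beside the members. Intervals of ratios are 95% exact intervals from the implied fragments and cover counting error only. Among 12 fibroblast markers, all were expressed in the library of untreated cells and in sum stood at FPKM 16175 untreated and 4289 treated, with 1 higher and 7 lower (1 and 3 with the junction adjustment, median −0.42 in place of −1.70), and 1 of the 7 had a failed status in the treated library. Melanocyte and Schwann cell markers summed to 50.1 and 6.11, endothelial markers to 6.17 and 1.95 and skeletal muscle markers to 109 and 57.4. Median changes of their expressed genes were −2.49, −1.23 (1 gene) and −0.87, and with the junction adjustment −2.18, −0.82 and 0.16. Lower were 3 of 6 muscle markers, and 1 with the junction adjustment, so the muscle difference depends on the scaling. In bulk RNA, fewer cells of a type and less RNA per cell cannot be told apart.

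Of the 6 members, 5 were expressed. After thapsigargin, 4 of the 6 were higher (Ddit3, Cebpb, Cebpd and Cebpg), beside 6.02% of the 12207 expressed entries. None of the members was lower, beside 28.2% of expressed entries. With the junction adjustment, which could be made for 11999 expressed entries, 1475 (12.3%) were higher and 1228 (10.2%) lower, and 4 members were higher and none lower. Cebpa differed little, and Cebpe was below FPKM 1 in both libraries.

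**Figure D1:**
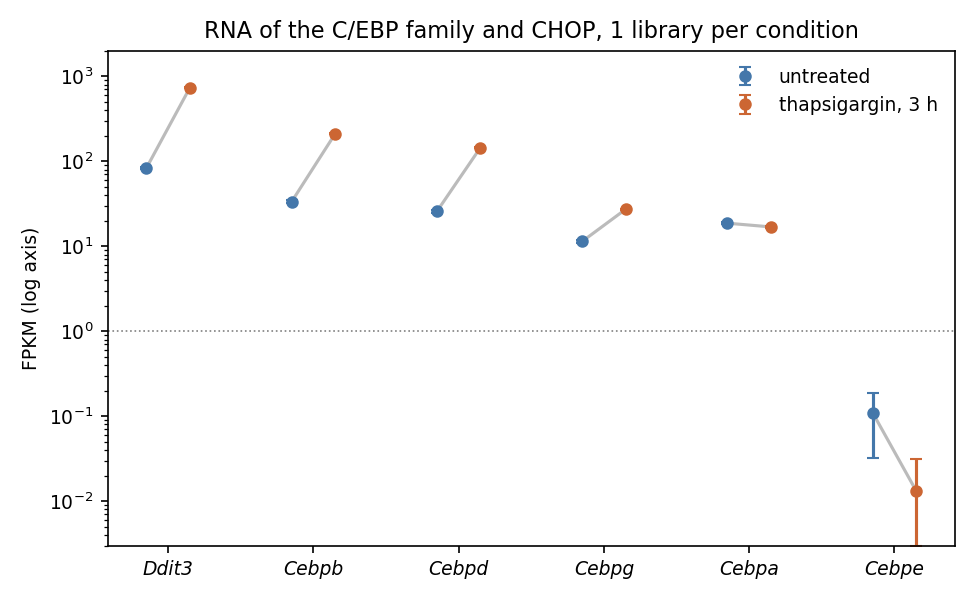
FPKM of each member (log axis) in the untreated and the thapsigargin library, 1 library each, with the deposited lower and upper bounds as bars; a bound of 0 is cut at the axis. Ddit3, Cebpb, Cebpd and Cebpg lie higher in the treated library, Cebpa at 18.7 and 16.9, and Cebpe below the dotted line at FPKM 1.

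Cebpb (chr2:167514415-167515918, plus strand) encodes C/EBPB, a factor of acute phase and inflammatory transcription whose long activating and short inhibitory forms are translated from the same RNA and are not distinguished here. Its RNA stood at FPKM 33.4 (bounds 32.2 to 34.6) untreated and 211 (209 to 213) after thapsigargin. The treated library was the higher, 6.31-fold (6.08 to 6.55), a log2 change of 2.62 (junction-adjusted 2.46). Among expressed entries, 100 had a larger increase (0.819%), and Cebpb moved from rank 2132 to rank 150 of all entries by level. The gene shares 312 of its 1504 exonic bases (20.7%) with Tmem189 on the other strand. Whether counting used the strand is not given in the sources used here, and Tmem189 itself stood at 28.2 and 22.0, a log2 change of −0.35.

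Cebpd (chr16:15887379-15889638, plus strand) encodes C/EBPD, which is made rapidly after cytokine signals. Its RNA stood at FPKM 25.7 (24.8 to 26.5) untreated and 145 (143 to 146) after thapsigargin. The treated library was again the higher, 5.63-fold (5.44 to 5.83), a log2 change of 2.45 (junction-adjusted 2.29). Larger increases were found for 132 expressed entries (1.08%), and the rank by level went from 2782 to 229.

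Ddit3 (chr10:126727849-126733344, plus strand) had the highest level of the 6 in both libraries. Its RNA stood at FPKM 82.9 (80.3 to 85.6) untreated and 735 (729 to 740) after thapsigargin. The difference was 8.86-fold (8.58 to 9.15), a log2 change of 3.13 (junction-adjusted 3.68). With 61 expressed entries (0.5%) increasing more, Ddit3 ranked 24 of 23583 in the treated library and 713 in the untreated library. Mars, on the other strand, shares 68 of the 1713 exonic bases (3.97%) and a noncoding antisense gene shares 13 (0.759%).

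Cebpg (chr7:35831441-35841585, minus strand), the dimer partner, had the smallest of the 4 increases. Its RNA stood at FPKM 11.4 (11.0 to 11.7) untreated and 27.3 (26.9 to 27.7) after thapsigargin, 2.40-fold higher (2.32 to 2.49), a log2 change of 1.20 (junction-adjusted 1.30). Larger increases were found for 543 expressed entries (4.45%). With a pseudocount of 5 in place of 1 its change was 0.98, below the threshold, so that 3 members were then higher.

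Cebpa (chr7:35904312-35906951, plus strand) encodes C/EBPA, which drives adipocyte and myeloid differentiation and arrests the cell cycle. Its RNA stood at FPKM 18.7 (18.1 to 19.4) untreated and 16.9 (16.4 to 17.3) after thapsigargin. The untreated value was 1.11-fold the treated value (1.06 to 1.16), a log2 change of −0.14 that did not reach the threshold. The junction-adjusted change was −0.30, and centring on the median of entries at FPKM 5 or more gave 0.25, so its direction depends on the scaling. Cebpe (chr14:55329200-55331011, minus strand), the granulocyte factor, stood at FPKM 0.11 (0.0323 to 0.188) and 0.0132 (0 to 0.0318). These levels rest on 8 and 2 implied fragments and are near the limit of detection in both libraries.

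The order by FPKM in the untreated library was Ddit3, Cebpb, Cebpd, Cebpa, Cebpg and Cebpe. In the treated library Cebpg stood above Cebpa, and the other places were as before. The deposited bounds of neighbours in either order did not overlap, but they hold no variation between cultures. The summed FPKM of the 5 C/EBP genes was 89.3 untreated and 399 treated, 4.48-fold higher. Cebpb supplied 37.4% of the sum untreated and 52.7% treated, and Cebpd 28.8% and 36.2%. The share of Cebpa was 21.0% untreated and 4.22% treated, and that of Cebpg 12.7% and 6.83%. Per FPKM of Cebpa there were 1.78 of Cebpb untreated and 12.5 treated, and 4.43 of Ddit3 untreated and 43.6 treated. Ddit3 stood at 2.48 times the FPKM of Cebpb untreated and 3.49 times treated, while Cebpb stood at 1.30 and 1.46 times Cebpd. With Ddit3 counted in, Ddit3 made up 48.2% of the summed FPKM untreated and 64.8% treated, while Cebpb made up 19.4% and 18.6% and Cebpa 10.9% and 1.49%. These are shares of RNA and not of protein.

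The entries whose pair of levels lay closest to each member were named by Euclidean distance in log2(FPKM + 1) over the 2 RNA libraries. For Cebpb they were Zfp36 (FPKM 38.3 and 213, distance 0.193) and Snai1 (28.2 and 203, 0.243), and for Cebpd Mt2 (27.1 and 140, 0.0913) and Ch25h (24.0 and 152, 0.120). For Cebpg they were Mvd (11.8 and 27.9, 0.0629) and Zfp9 (11.0 and 26.0, 0.0782), and for Ddit3 Id3 (67.3 and 921, 0.441) and Junb (76.1 and 539, 0.461). The nearest entries to Ddit3 lay farther off than those to the other 3 members.

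Other bZIP proteins that can pair with C/EBP proteins were mixed. Of 28 listed genes, 25 were expressed, 10 were higher and 3 lower, with a median change of 0.51 (junction-adjusted 10, 3 and 0.68). For this list and the gene lists below, the background is all expressed entries, 6.02% higher and 28.2% lower (junction-adjusted 12.3% and 10.2%). These lists were chosen with earlier results of these data known. Atf4, which encodes the factor immunoprecipitated here, stood at FPKM 208 untreated and 849 treated, 4.08-fold higher (4.03 to 4.14). Nfil3, a bZIP repressor, stood at 24.2 and 203 (log2 change 3.02), Junb, a subunit of AP-1, at 76.1 and 539 (2.81), and Maff, a small MAF protein, at 8.51 and 125 (3.73). Fosl1 stood at 0.372 and 32.5 (4.61), but 68.1% of its exonic bases are shared with Ccdc85b, so its value is uncertain. The lower genes included Dbp, a circadian output factor, at 17.1 and 2.25 (−2.48), and Maf with a change of −1.23, the latter named after its value was seen. Dbp shares 16.7% of its exonic bases with Sphk2.

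**Figure D2:**
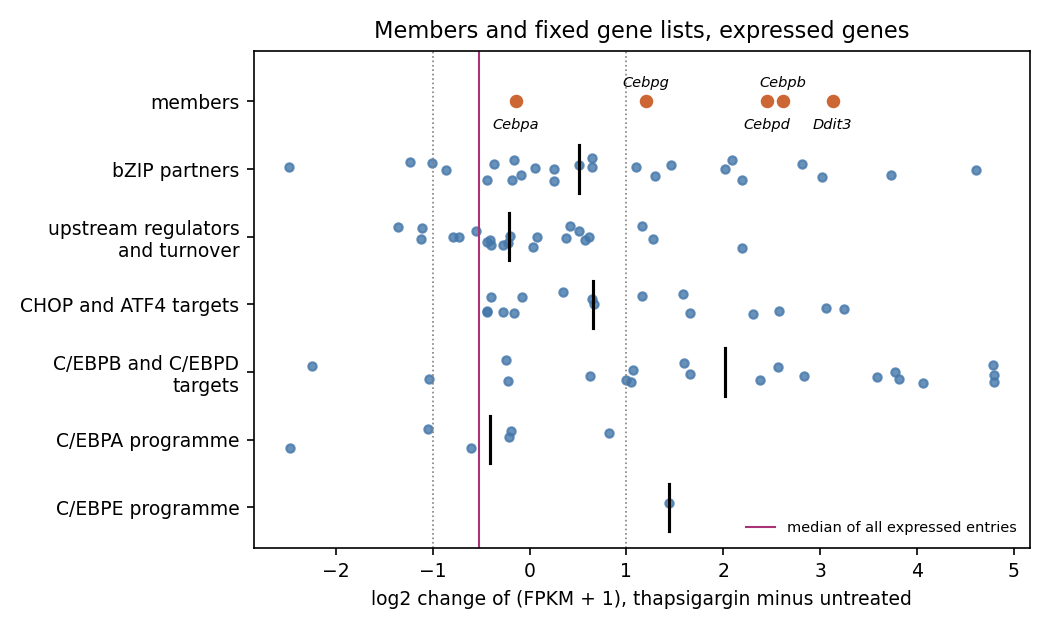
Log2 change of (FPKM + 1), thapsigargin minus untreated, for the 5 expressed members and for the expressed genes of 6 lists; black bars are list medians, dotted lines mark 1 and −1, and the red line marks the median of all expressed entries, −0.52. Ddit3, Cebpb and Cebpd lie beyond 2, and the list of C/EBPB and C/EBPD targets has the highest median among lists with more than 1 expressed gene, 2.02. The lists were chosen with earlier results of these data known.

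Genes reported as targets of CHOP and ATF4 were higher in 7 of 16 cases and lower in none, with a median change of 0.65 (junction-adjusted 8, none and 1.02). Chac1, which degrades glutathione, stood at FPKM 16.8 and 168 (log2 change 3.25), and Herpud1, which takes part in degradation of endoplasmic reticulum proteins, at 55.6 and 471 (3.06). Ppp1r15a, which encodes the phosphatase subunit GADD34 that reverses the translation block, stood at 28.6 and 176 (2.58). Nupr1, a stress protein of the nucleus, stood at 131 and 655 (2.31), and Ddit4, an inhibitor of mTOR signalling, at 22.4 and 73.0 (1.66). Trib3, a pseudokinase that binds ATF4 and CHOP, stood at 69.2 and 156 (1.16).

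Inflammatory and acute phase genes reported as targets of C/EBPB and C/EBPD had 20 expressed of 24 listed, 14 higher and 2 lower, with a median change of 2.02 (junction-adjusted 17, 1 and 2.55). Of all expressed entries, 6.02% were higher (junction-adjusted 12.3%). The list was chosen with earlier results of these data known, so its high median is no independent finding. Ccl2, a chemokine for monocytes, stood at FPKM 76.0 and 2118 (log2 change 4.78), and Cxcl1, a chemokine for neutrophils, at 13.2 and 197 (3.81). Il11, a cytokine of the IL-6 family, stood at 0.667 and 45.2 (4.79), and Cxcl2 at 0.194 and 18.9 (4.06). The treated library had Ccl20, another chemokine, at 26.9, where the untreated table lists 0. The 2 lower genes were the matrix metalloproteinase genes Mmp3 (−2.25) and Mmp13 (−1.04), named after their values were seen, and Mmp13 had a junction-adjusted change of −0.49. Macrophages also express Cebpb, Cebpd and several of these cytokines. All 10 macrophage and leukocyte markers were expressed, with a summed FPKM of 1304 untreated and 1389 treated, 2 higher and 2 lower (4 and 2 with the junction adjustment, median 0.89 in place of −0.08). Among the 4 higher with the adjustment, 1 had a failed status in the treated library. Lyz2, lysozyme, made up most of the sum at 880 and 951. The higher markers were Cd14 at 14.8 and 111 (log2 change 2.83) and Fcer1g at 77.6 and 189 (1.27). The lower markers were the antigen presentation genes Cd74 at 143 and 5.61 (−4.44) and H2-Aa at 57.8 and 0.0392 (−5.82). The part of these cells in the members' levels was not tested.

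Regulators of C/EBP and CHOP production and turnover had 3 of 22 genes higher and 3 lower, with a median change of −0.21. With the junction adjustment 5 were higher and 1 lower, with a median of 0.22, so the sign of the median depends on the scaling. Xbp1, the factor activated by IRE1 splicing, stood at FPKM 72.9 and 337 (log2 change 2.19), and Myd88, an adaptor of Toll-like and IL-1 receptors, at 20.4 and 50.4 (1.27). Il6st, the shared receptor chain of IL-6 cytokines, stood at 109 and 41.8 (−1.36). Mapk14, the kinase p38 alpha, stood at 25.7 and 11.3 (−1.12), with a junction-adjusted change of −0.60.

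For the adipocyte programme of C/EBPA, 6 of 12 genes were expressed, none was higher and 2 were lower, with a median change of −0.40 and a summed FPKM of 296 untreated and 148 treated. With the junction adjustment 1 was higher and 1 lower, with a median of 0.01. Fabp4, a fatty acid carrier of adipocytes and macrophages, stood at FPKM 12.8 and 1.49 (log2 change −2.47), and Lpl, lipoprotein lipase, at 254 and 122 (−1.05, junction-adjusted −0.80). Pparg, the adipocyte nuclear receptor, stood at 2.24 and 4.75, a log2 change of 0.82 that reached 1.05 with a pseudocount of 0.1 and 1.24 with the junction adjustment. The 6 adipocyte markers summed to 12.9 and 1.55, nearly all of it Fabp4, and Lep was listed at 0 in both libraries. For the granulocyte programme of C/EBPE, 1 of 12 genes was expressed: S100a8, a calcium-binding protein of neutrophils, at 0.143 and 2.10 on 2 and 65 implied fragments. Of the 8 granulocyte markers, which share most genes with that programme, Ngp, Elane and S100a9 were listed at 0 in both libraries. Keratinocytes are another source of C/EBP RNA in skin. Their 10 markers summed to 30.4 untreated and 2.0 treated, 7 of them lower (5 with the junction adjustment), and their part in the members' levels was not tested.

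Binding was described from the peak lists, which gave a position and a score for each peak, called per library. For CEBPB there were 7317 peaks without and 7861 with thapsigargin, and for ATF4 10109 with it. The score is the authors' own and its scale differs between lists, so it is used only as a rank within a list. Within 50 kb of the 6 loci lay 22 peaks, 9 of them at Ddit3, 6 at Cebpb, 3 at Cebpg, 2 at Cebpd and 1 each at Cebpa and Cebpe. CEBPB peaks of untreated cells lay near 4 of 6 members (34.0% of 23444 entries have one that near), CEBPB peaks of treated cells near 4 (37.1%) and ATF4 peaks near 5, all but Cebpe (63.0%). Among the 12207 expressed entries these shares were 44.1%, 43.6% and 81.0%, beside 3, 4 and 5 of the 5 expressed members. The ATF4 count among expressed members was thus near that background. Of the 22 peaks, 10 overlapped a peak of another list.

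ATF4 peaks that overlapped a CEBPB peak of treated cells were few, 449 of 10109, and they lay within 50 kb of 3 members, Cebpb, Cebpg and Ddit3, against 3.8% of entries. The 101 ATF4 peaks of highest score, the top 1%, lay near the same 3 members, against 0.704% of entries, and 92 of these 101 peaks overlapped a CEBPB peak of treated cells. Both subsets were defined after the data were seen. Among the 735 entries higher after thapsigargin, 6.80% had a peak of the first kind and 2.04% of the second. Among all 12207 expressed entries the shares were 5.2% and 0.926%. Of the 16 reported targets of CHOP and ATF4, 6 had a peak of the first kind, Asns, Bbc3, Chac1, Herpud1, Trib3 and Vegfa, and all of these but Vegfa had a peak of the second kind. Asns (log2 change −0.16) and Bbc3 (0.35) were not called higher, while Chac1, Herpud1, Trib3 and Vegfa were. Among the 24 targets of C/EBPB and C/EBPD the count was 1 for the first kind, Cd14, and 0 for the second, and among the 28 bZIP genes it was 2, Atf3 and Dbp, and 0.

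**Figure D3:**
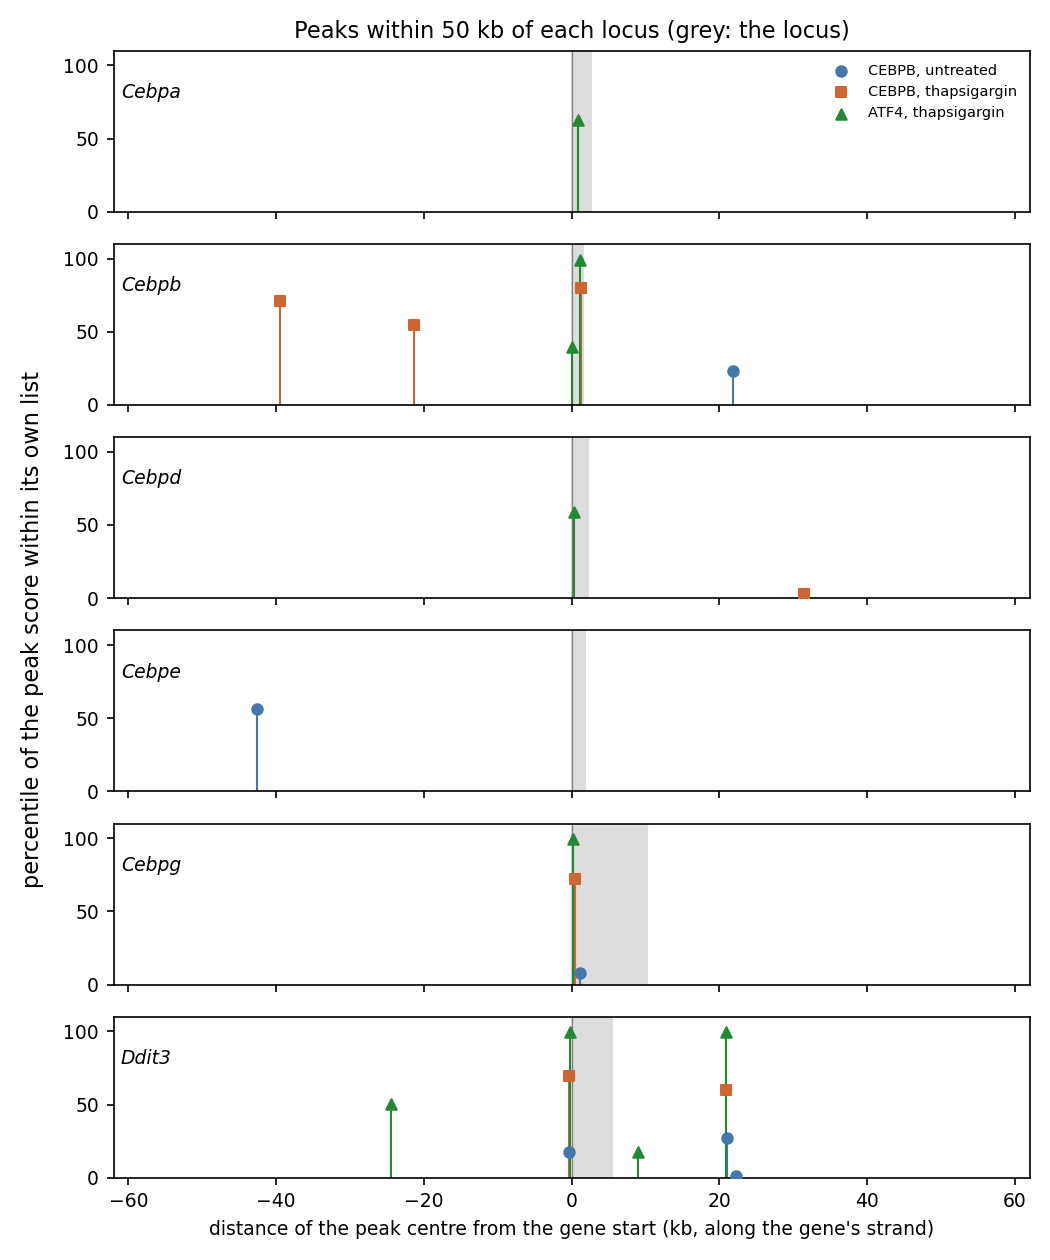
Peaks of the 3 lists within 50 kb of each locus, by the distance of the peak centre from the gene start (kb, along the gene's strand) and the percentile of the score within the peak's own list; grey marks the locus. ATF4 peaks above the 99th percentile lie at Cebpb, Cebpg and Ddit3, each with a CEBPB peak of treated cells at the same place.

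At Ddit3 all 3 lists had a peak upstream of the start, centred between 0.28 and 0.34 kb from it. The ATF4 peak (chr10:126727373-126727759) had a score of 68.51 and rank 38 of 10109. The CEBPB peak of treated cells (chr10:126727435-126727669) had rank 2367 of 7861, and it lay wholly inside both others, with 235 bp shared. The CEBPB peak of untreated cells (chr10:126727319-126727705) had rank 6035 of 7317. CEBPB was thus listed here in untreated cells as well, in the lower part of that list by score. The 235 bases of the CEBPB peak of treated cells are shown in the direction of Ddit3 because they hold both matches found upstream of the gene, in capitals: TGATGCAA read on the other strand, 301 bp upstream of the start, and TGACTCA, the letters of an AP-1 site, 242 bp upstream.
Ddit3 upstream: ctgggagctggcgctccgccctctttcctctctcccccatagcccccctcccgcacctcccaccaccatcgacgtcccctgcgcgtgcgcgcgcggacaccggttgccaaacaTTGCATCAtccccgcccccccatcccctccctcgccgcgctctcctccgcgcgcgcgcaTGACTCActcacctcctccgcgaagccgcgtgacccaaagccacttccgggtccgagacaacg
TGACTCA was present in 8.30% of CEBPB peaks of treated cells, 19.7% of CEBPB peaks of untreated cells and 1.97% of ATF4 peaks. It was in 4 of the 100 ATF4 peaks of highest score whose sequence was read. These bases cross introns and an exon of the noncoding antisense gene RP24-341K21.6.

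A second site near Ddit3 also had peaks of all 3 lists, 20.83 to 20.96 kb downstream of its start, at the start of Mars, which encodes methionyl-tRNA synthetase. The ATF4 peak (chr10:126748475-126748890) had a score of 69.31 and rank 36. The CEBPB peaks had ranks 3126 in the treated and 5313 in the untreated list. Mars stood at FPKM 39.8 untreated and 9.89 treated, a log2 change of −1.91 (junction-adjusted −0.43), so Mars and Ddit3 differed in direction with a peak of the same lists at each start. The other 3 peaks near Ddit3 overlapped no other list. They were an ATF4 peak at the start of Dctn2 (rank 4948), where RNA stood at 97.6 and 43.7 (log2 change −1.14, junction-adjusted 0.45), an ATF4 peak in an intron of Mars (rank 8280) and a CEBPB peak of untreated cells 22.28 kb downstream (rank 7210).

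Cebpg had its ATF4 peak across its start (chr7:35841017-35841780), with a score of 72.45 and rank 35, the highest rank of any ATF4 peak near the family. The CEBPB peak of treated cells (chr7:35841002-35841231, rank 2167) shared 215 bp with it. A CEBPB peak of untreated cells lay 1.07 kb inside the gene (rank 6750) and overlapped neither.

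At Cebpb the ATF4 peak of high score did not lie at the start but 1.18 kb inside, in the 3′ untranslated region (chr2:167515450-167515736, score 44.22, rank 79). The CEBPB peak of treated cells (rank 1578) lay wholly within it, with 168 bp shared, and no CEBPB peak of untreated cells overlapped it. Both peaks held the match TGATGCAA shown above, and both also held TGACGCAA at chr2:167515656-167515663 on the plus strand, 1241 bp from the start. This match holds a CpG, and it is shown with the match in capitals.
Cebpb downstream: ggacacgggacTGACGCAAcacacgtgtaa
TGACGCAA was present in 0.762% of ATF4 peaks and 1.52% of CEBPB peaks of treated cells. Of the 100 ATF4 peaks of highest score whose sequence was read, 8 held it. The CpG of the match at Cebpb was listed at 0% methylation in untreated cells. A second ATF4 peak at the Cebpb start (chr2:167514213-167514658) had rank 6065 and held none of the letters searched. The nearest CEBPB peak of untreated cells lay 21.89 kb downstream (rank 5633).

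**Figure D4:**
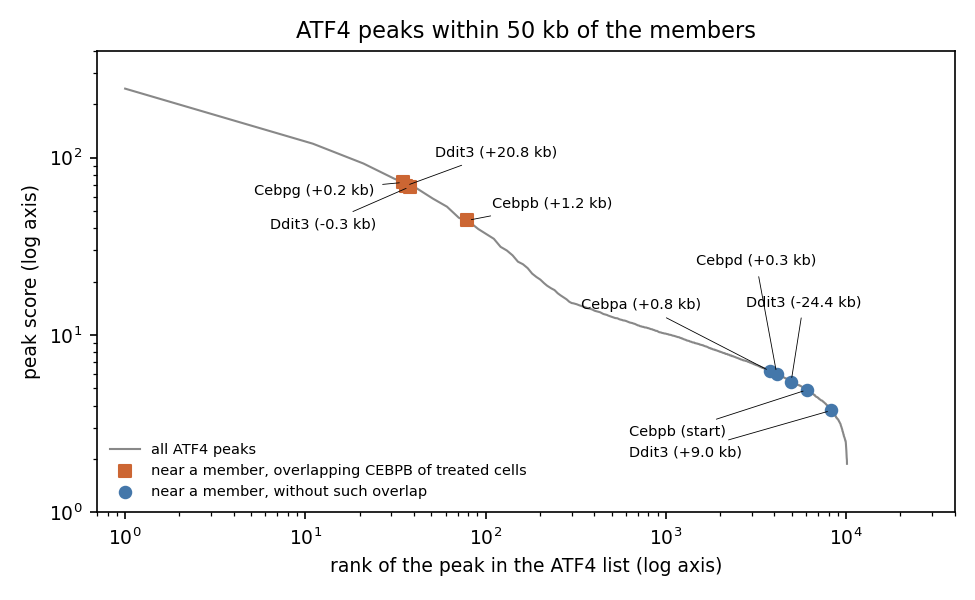
Score of all ATF4 peaks by rank (both axes log), with the 9 ATF4 peaks near the members marked by whether they overlap a CEBPB peak of treated cells; labels give the distance of the peak centre from the gene start. The 4 overlapping peaks lie at ranks 35 to 79 and the 5 others at ranks 3784 to 8280.

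At the remaining members no peaks of different lists overlapped. Cebpd, with a change of like size to Cebpb, had an ATF4 peak across its start (chr16:15887259-15888104, rank 4116) and a CEBPB peak of treated cells 31.5 kb downstream (rank 7579), which did not overlap. Cebpa had only an ATF4 peak in its coding exon (chr7:35904976-35905300, rank 3784). Cebpe had only a CEBPB peak of untreated cells, 42.55 kb upstream in an intron of Slc7a8 (rank 3207), which held TGACTCA. The ATF4 peaks of Cebpa and Cebpd held none of the letters searched. So within 50 kb an ATF4 peak overlapping CEBPB was found at 3 of the 4 members that were higher. An ATF4 peak alone lay within 50 kb of both Cebpd, which was higher, and Cebpa, which was not. Within 100 kb Cebpa too had an ATF4 peak overlapping CEBPB of treated cells, since the one at the start of Cebpg lies that near. At 100 kb such a peak lay near 4 members, Cebpa, Cebpb, Cebpg and Ddit3, beside 6.14% of entries.

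The other letters searched on both strands were TTGCGCAA, TTGCGTAA, CGATGCAA, TGACGTCA, TGACGTGG and the endoplasmic reticulum stress response element, and no peak near a member held any of them. Of the members, 4 had an entry among 32851 RefSeq promoters (GRCm38.p6, 250 bases before to 50 after the start): Cebpa, Cebpb, Cebpg and Ddit3. Ddit3 held TGACTCA, as did 5.20% of all promoters, and the other 3 held none of the letters. TGATGCAA was in 0.895% of all promoters and in none of these 4 members'. Letters outside that window are not counted here.

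DNA methylation of untreated cells was low around the starts of the 5 expressed members. Within 1 kb of the start the mean over CpGs was 0.206% at Cebpa (206 CpGs), 0.491% at Cebpd (161), 0.563% at Ddit3 (79), 2.24% at Cebpg (144) and 3.03% at Cebpb (231). At Cebpe it was 66.2% (52 CpGs). Thus 5 of 6 members were below 20%, beside 57.1% of 21553 entries and 83.2% of 11978 expressed entries, so the count among expressed members was near that background. The percentages came without coverage, so the depth behind them is unknown and they have no interval.

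The low region ended differently among members. Counted until 3 CpGs in a row reached 50%, it ran 3126 bases upstream and 2996 bases downstream of the start at Ddit3, 942 and 2625 at Cebpd, 1628 and 2255 at Cebpa, 701 and 2498 at Cebpb and 803 and 1679 at Cebpg. It thus covered all of the short intronless genes Cebpb (locus mean 0.0898%) and Cebpd (0.33%) and nearly all of Cebpa (4.46%). At Cebpg and Ddit3, which run beyond it, the locus means were 37.0% and 45.6%. From 1 to 10 kb upstream the means ranged from 41.8% at Ddit3 to 72.9% at Cebpd. CpG density within 1 kb of the start was highest at Cebpb, with 115 CpGs per kb, and lowest at Cebpe, with 25.5.

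**Figure D5:**
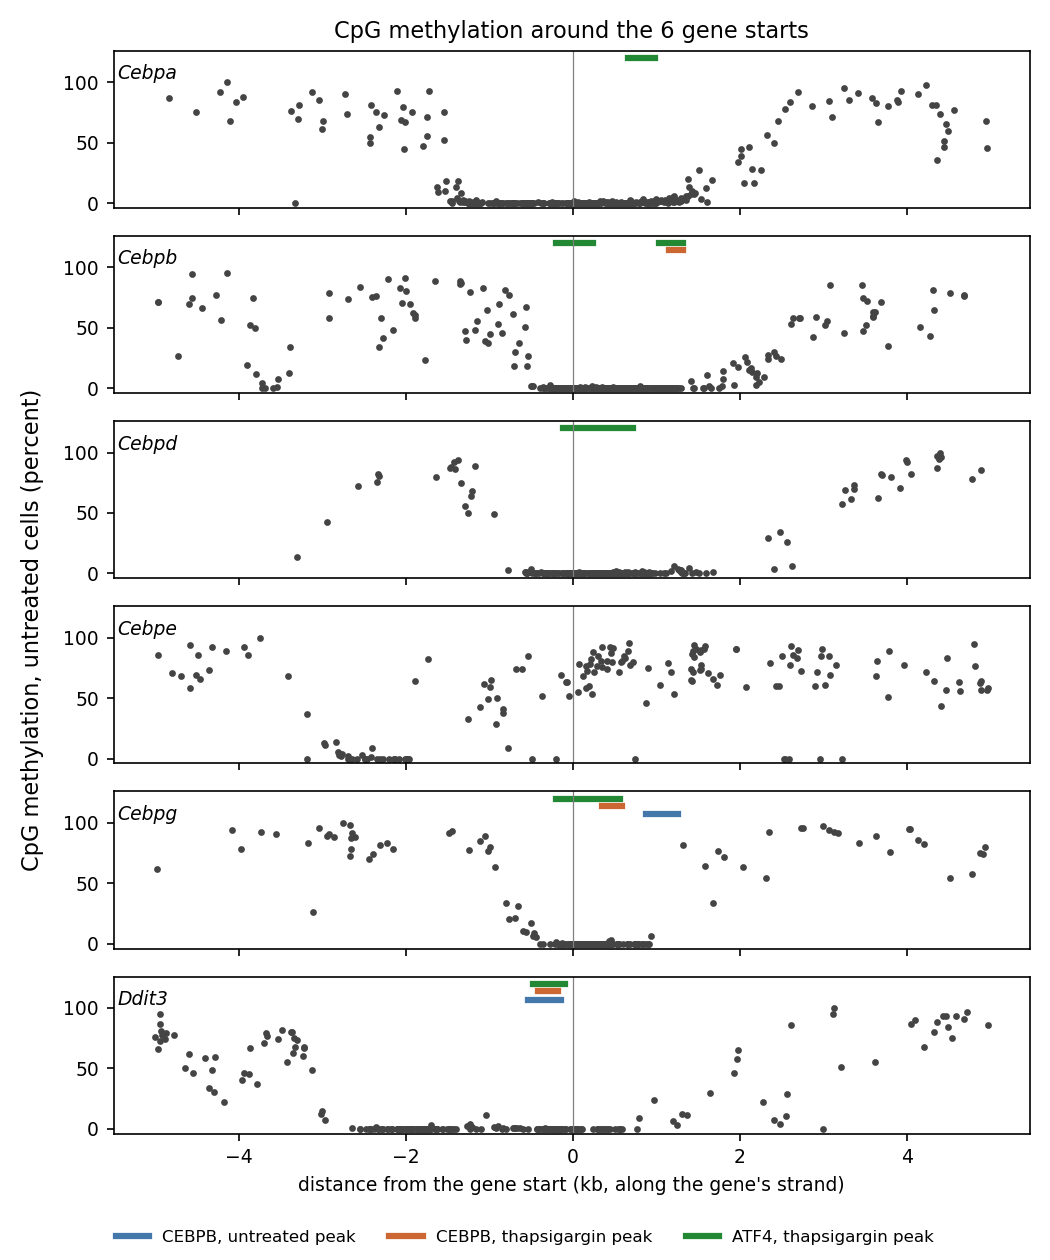
Methylation of each CpG in untreated cells (percent) by distance from the gene start (kb, along the gene's strand) for the 6 members; bars at the top mark peaks of the 3 lists. CpGs near the start are close to 0% in all members but Cebpe, and the peaks within 5 kb lie over CpGs of low methylation.

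Of the 22 peaks near members, 16 had a mean CpG methylation below 20% and 6 did not. Among ATF4 peaks it was 8 of 9, beside 82.3% of the 9530 ATF4 peaks with a listed CpG. Among CEBPB peaks it was 4 of 6 in untreated cells, beside 22.1% of 7045 peaks, and 4 of 7 in treated cells, beside 19.3% of 6377. The sites upstream of Ddit3 and at the start of Mars count in both CEBPB lists. The CEBPB backgrounds hold peaks at any distance from a gene start, so they are not matched to these peaks. The count for ATF4 was thus near its background. The 4 ATF4 peaks that overlapped CEBPB were at 0.0278% upstream of Ddit3 (36 CpGs), 0.0256% at the start of Mars (39), 0.0556% at Cebpg (108) and 0.0541% at Cebpb (37). The ATF4 peak that was not below 20% was the one in an intron of Mars at 88.6% (10 CpGs). Methylated peaks of CEBPB lay away from the starts. In treated cells they were 21.3 kb and 39.46 kb upstream of Cebpb at 84.8% (6 CpGs) and 25.5% (2 CpGs) and downstream of Cebpd at 95.5% (1 CpG). In untreated cells they were downstream of Cebpb at 53.5% (5 CpGs) and of Ddit3 at 50.9% (4 CpGs). Methylation was not measured in treated cells, so these values describe the DNA before treatment.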

How the data were processed

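The 7 libraries were grouped by their titles and treatment labels. FPKM per gene entry, with bounds and a status, were deposited by the authors. Peak positions with a score of unstated scale were deposited by the authors, called per library. Methylation was a percent per CpG cytosine, pooled over both bisulfite libraries by the authors, without coverage. Per the submitters' processing notes, reads went through CASAVA 1.8.2 and Bowtie for RNA, CASAVA 1.7, BWA and SAMtools for immunoprecipitation, and CASAVA 1.8 and Novoalign for bisulfite DNA, on mm9. Which FPKM program, strand setting, peak calling settings and control, and methylation caller were used is not given in the sources used here.

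Fragments were inferred from the upper bound, taken as 2 × FPKM divided by the root of the fragments above the value. Entries with a failed status numbered 6 and 95. The pseudocount was 1, and no test was run. GENCODE vM1 matched 21748 entries (92.2%). Junction-adjusted changes used 50 bins of genes at FPKM 5 or more. Of the 39547384 cytosines, 83035 marked heterozygous were left out, and both strands of a CpG were averaged. Overlap was 1 bp or more. Windows of 100 bp every 50 bp of each member, aligned with minimap2 2.31-r1302, had 0 near-identical copies with at most 3 mismatches. Sequences are of the mm9 reference, while the cells are FVB/N. Python 3.11.15, numpy 2.4.6, pandas 2.3.3, scipy 1.17.1, pysam 0.24.0 and matplotlib 3.10.9 were used, and the calculations were tested on simulated data.

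Named were the members, Atf4, Trib3 and Ppp1r15a, up to 5 genes with the largest change of each list, and the 2 entries nearest each of 4 members. Also named were neighbours between a member and a peak or elsewhere in the region of a member, and every peak within 50 kb. Text gives a selection of the marker and neighbour genes. Some items that these rules take are not reported here. Members and lists were chosen with earlier results of these data known. Alternatives covered the pseudocount, the filter, centring, junctions, window, score, overlap and CpG settings.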

Additional observations from a re-analysis of the deposited data

How the results depend on the processing

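The count of members higher after thapsigargin was 4 without a filter, at FPKM 5 or more, with a pseudocount of 0.1, after centring and after the junction adjustment, and 3 with a pseudocount of 5. CEBPB peaks of untreated cells lay near 4 members within 50 kb, near 2 within 10 kb, and near 1, Cebpe, when only peaks above the median score of the list were used. Their counts near members therefore depend on the window and the score. ATF4 peaks overlapping a CEBPB peak of treated cells lay near 3 members within 10 kb and within 50 kb. Within 100 kb they lay near 4, with Cebpa added, and the ATF4 peaks of highest score, the top 1%, gave the same counts. The count of overlapping peaks was 10 at either overlap, and 5 starts were below 20% in each methylation setting. For 66 named genes the call and the sign of the rounded log2 change were compared, a new sign counting also where neither value reached 1. Call or sign differed for 10 after centring, 2 and 13 with a pseudocount of 0.1 and 5, and 15 after the junction adjustment. Under the last, the muscle marker Tnni2 turned from −1.32 to 0.60. The cause was not tested. No paired analysis was possible because each RNA and binding group had 1 library. For the same reason no replicate could be left out, and differences between cultures are not covered by any interval.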

Other observations

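Away from the starts, runs of 8 or more neighbouring CpGs below 20%, outside the low region around the start, were sought within 10 kb of each member, a search chosen after the data were seen. The longest lay upstream of Cebpe, whose own start was methylated: 34 CpGs over 1222 bases (chr14:55332976-55334197), 1.97 to 3.19 kb from the start, had a mean of 2.10%. It overlapped no annotated gene and no peak of the 3 lists, and Cebpe RNA was below FPKM 1. Upstream of Cebpb, 2 such runs lay in Tmem189, with 15 CpGs at 1.67% from 8.52 to 9.13 kb and 8 CpGs at 4.69% from 3.40 to 3.79 kb, and neither held a peak. A smaller run lay 7.91 to 8.16 kb downstream of the Cebpa start (9 CpGs, 8.83%). None was found at Cebpd, Cebpg or Ddit3.

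Some other genes in the wider regions around the members were also read. Ube2v1, near Cebpb, encodes a ubiquitin-conjugating enzyme variant. It stood at FPKM 78.9 untreated and 6.47 treated, a log2 change of −3.42 (junction-adjusted −3.05), while Cebpb was higher. Pepd, near Cebpg, stood at 29.4 and 14.1 (−1.01, junction-adjusted 0.58). Arhgap9, near Ddit3, stood at 4.56 and 1.15 (−1.37, junction-adjusted 0.22). Inhbe, a gene in the region of Ddit3 that encodes an activin subunit, was listed at 0 untreated and 0.00714 treated, on 2 implied fragments.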
